A study of Mus musculus with 2 samples.

Results

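First-intron differentially accessible regions (DARs) beyond the promoter zone were the rows of the deposited DAR table annotated to intron 1 of a transcript, with those lying 1 to 3000 bp after the nearest transcription start site (TSS) left out. They numbered 531 of 5650 DARs, which is 9.4% of all DARs and 27.3% of the 1945 DARs in introns. The assay for transposase-accessible chromatin with sequencing (ATAC-seq) had been run on bone marrow-derived monocytes (BMDMs) of C57BL/6 mice, precursors cultured from marrow that turn into bone-resorbing osteoclasts under RANKL. Both conditions received M-CSF at 50 ng/ml and RANKL at 100 ng/ml, and they differed in the addition, for a day, of vector (MR + vector) or of iBRD9 (MR + iBRD9), a small molecule that occupies the bromodomain of BRD9. Each condition was 1 library of 5000 cells, so no value below has a replicate behind it, and direction means only whether a region passed the fold change limit set by the authors upward (gain DAR) or downward (loss DAR) in MR + iBRD9. The tables hold positions, widths and annotations but no read counts, signal or fold changes, so the depth behind a DAR is unknown and no DAR could be ranked by strength.

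The first intron follows the exon at which a transcript starts. It is usually the longest intron of a mammalian gene, and it often carries enhancers, short stretches of open chromatin that transcription factors occupy and that act on a promoter from a distance. BRD9 is a subunit of the non-canonical BAF complex, an ATP-driven chromatin remodeller that moves or evicts nucleosomes, and its bromodomain binds acetylated lysines. In macrophages and osteoclasts, enhancers are known for sites of PU.1, AP-1, C/EBP and RUNX factors, with MITF and NFAT factors acting later in osteoclast formation.

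Among the hosts of these DARs were Tnfrsf11a, which encodes RANK, the receptor for RANKL, Mitf and Tfec, 2 members of the same family of transcription factors, Syk, a kinase that signals below immunoreceptors, Pik3r5, a regulatory subunit of PI3-kinase gamma, and Ptprj, a receptor tyrosine phosphatase. Their DARs of at most 300 bp that hold a searched motif are shown here because they are the members closest to the lineage. Capitals mark the motif cores, which may lie on either strand, and the letters are those of the GRCm39 genome.
Tnfrsf11a loss DAR, chr1:105734638-105734837 (+ strand, GRCm39): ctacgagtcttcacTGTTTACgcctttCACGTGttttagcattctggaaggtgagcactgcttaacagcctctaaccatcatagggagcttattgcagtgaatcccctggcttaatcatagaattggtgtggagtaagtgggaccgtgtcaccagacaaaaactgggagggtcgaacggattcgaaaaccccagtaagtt
Mitf gain DAR, chr6:97797689-97797907 (+ strand, GRCm39): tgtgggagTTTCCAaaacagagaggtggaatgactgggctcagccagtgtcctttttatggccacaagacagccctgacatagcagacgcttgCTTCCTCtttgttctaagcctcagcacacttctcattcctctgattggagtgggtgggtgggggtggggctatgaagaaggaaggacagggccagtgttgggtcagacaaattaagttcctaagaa
Mitf loss DAR, chr6:97880566-97880728 (+ strand, GRCm39): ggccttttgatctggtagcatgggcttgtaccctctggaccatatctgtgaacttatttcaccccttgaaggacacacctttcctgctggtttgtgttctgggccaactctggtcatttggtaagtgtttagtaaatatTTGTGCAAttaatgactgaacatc
Tfec gain DAR, chr6:16883624-16883783 (+ strand, GRCm39): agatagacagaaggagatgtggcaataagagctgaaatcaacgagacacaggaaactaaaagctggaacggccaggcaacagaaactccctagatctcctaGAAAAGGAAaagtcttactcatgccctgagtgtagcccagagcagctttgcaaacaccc
Syk gain DAR, chr13:52757037-52757217 (+ strand, GRCm39): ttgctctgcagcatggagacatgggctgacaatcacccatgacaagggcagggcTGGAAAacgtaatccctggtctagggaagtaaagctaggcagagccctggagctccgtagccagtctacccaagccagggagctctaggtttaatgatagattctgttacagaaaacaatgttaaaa
Pik3r5 gain DAR, chr11:68348892-68349144 (+ strand, GRCm39): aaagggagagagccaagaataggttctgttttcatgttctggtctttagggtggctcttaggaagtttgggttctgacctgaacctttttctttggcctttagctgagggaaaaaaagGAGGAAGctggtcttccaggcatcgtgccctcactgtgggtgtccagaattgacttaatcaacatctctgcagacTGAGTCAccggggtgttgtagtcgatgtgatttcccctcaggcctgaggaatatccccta
Ptprj loss DAR, chr2:90319438-90319687 (+ strand, GRCm39): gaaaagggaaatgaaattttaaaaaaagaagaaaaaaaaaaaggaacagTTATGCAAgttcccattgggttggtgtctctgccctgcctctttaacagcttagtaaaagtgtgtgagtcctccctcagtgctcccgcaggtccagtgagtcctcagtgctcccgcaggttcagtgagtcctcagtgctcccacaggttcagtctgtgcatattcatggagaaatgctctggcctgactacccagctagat

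The Tnfrsf11a loss DAR held a forkhead core, read on the other strand as GTAAACA, followed by an E-box CACGTG, the kind of site that MITF and its relatives bind. The Mitf gain DAR held an NFAT core and a PU.1 core, whereas the Mitf loss DAR shown held a C/EBP core. The Pik3r5 gain DAR held both a PU.1 core and an AP-1 core. A match describes letters and does not show that a factor was bound.

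Of the 531 first-intron DARs, 274 were gains and 257 were losses, a gain share of 51.6% with a 95% Wilson interval of 47.4 to 55.8%. Among all 5650 DARs, 55.9% were gains and 44.1% were losses. Intervals here and below cover counting error only, and neighbouring DARs are not independent of each other. In later introns 707 of 1246 DARs were gains, or 56.7% (54 to 59.5%), and among first-intron DARs 1 to 3000 bp after a TSS 94 of 168 were gains, or 56% (48.4 to 63.2%). The gain share in first introns beyond the promoter zone was thus lower than in each of these classes, but its interval overlapped theirs. It also ran below the 56.4% (55 to 57.8%) of all other DARs together, and those 2 intervals overlapped as well. Promoter DARs had a gain share of 56% (52.8 to 59.1%) and intergenic DARs one of 55.7% (53.7 to 57.8%), which also overlapped. DARs in exons and untranslated regions had a gain share of 60.9% (55.9 to 65.7%), and this interval lay above that of the first-intron DARs.

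**Figure D1:**
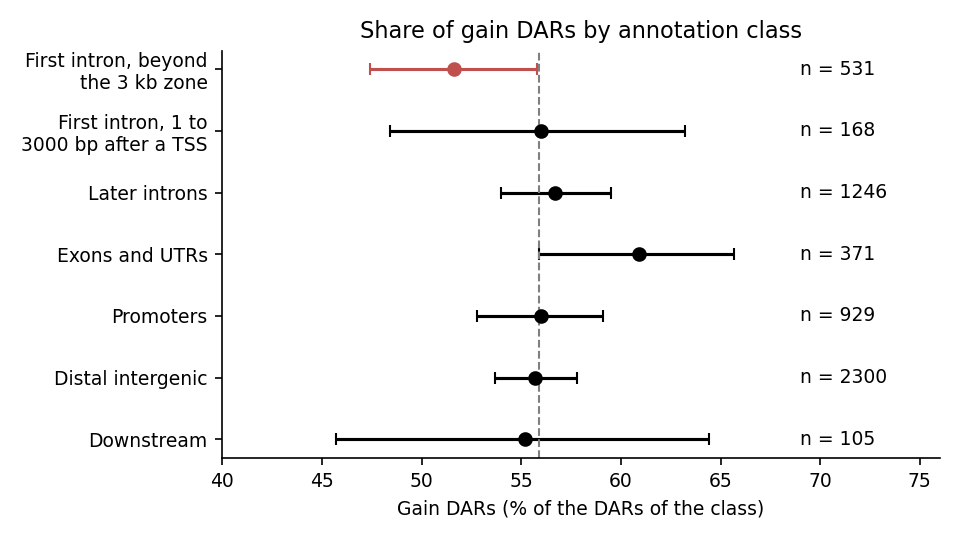
Gain share of DARs in percent (x axis, from 40) for classes of DARs by position (y axis), where points are shares, lines are 95% Wilson intervals that cover counting error only, and the dashed line is the share over all DARs. First-intron DARs beyond the promoter zone sit at 51.6%, below the 55.9% of all DARs, and their interval reaches up to 55.8%.

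Within the first-intron DARs, subsets differed little in direction. DARs after the nearest TSS had a gain share of 52.2% (186 of 356), and those before it 50.3% (88 of 175). A first-intron DAR can lie before a TSS because the nearest TSS may be that of an inner transcript of the host or of another gene. Where the nearest gene was also the host, in 351 DARs, 51.9% were gains, against 51.1% of the 180 DARs whose nearest gene was another one. In those 180 DARs the nearest gene was protein-coding in 24 cases, and in 156 it was another kind of gene or an identifier not in the annotation. A DAR inside Iqsec1, for example, was listed under Ppp1r2-ps2, and one inside Ptprj under Ptprjos1. DARs in protein-coding hosts had a gain share of 52.5% (415 DARs), and those in hosts annotated as long non-coding RNAs (lncRNAs) 48.6% (105 DARs). In the host transcript with the longest coding sequence, 416 DARs lay in the first intron, 50 in a later intron and 57 outside. Of DARs in the gene lists below, those in Asap1, Itgb2, Palld, Stat3, Syk, Tiam1 and Utrn and the Arhgap24 gain lay in a later intron. Those in Foxp1, Foxp2, Iqsec1 and Prdm1 lay outside.

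Lists of genes were looked up as hosts, beginning with the lineage under study. Of 75 genes for osteoclast differentiation and resorption in the annotation, 6 hosted a first-intron DAR, or 8% (3.72 to 16.4%), with 4 gain and 4 loss DARs. Of all 20363 protein-coding genes with an intron, 361 hosted one, or 1.77%. Genes on the osteoclast list have longer first introns, with a median of 8461 bp against 2738 bp over all genes, and hosts had longer first introns than other genes, as given below. Among genes with a first intron over 20 kb, 5 of 17 osteoclast genes and 273 of 2727 genes in all (10.0%) were hosts.

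Mitf, which encodes a transcription factor needed for osteoclast formation, had 3 DARs in its first intron of 133765 bp. A gain DAR lay 13848 bp after the start of the listed transcript, and loss DARs lay 96697 bp and 104916 bp after it. The gain therefore stood near the start of the intron and both losses past its middle. Tfec, the gene of a related factor of myeloid cells, had 1 gain DAR, 14615 bp after its TSS. Tnfrsf11a had 1 loss DAR near the far end of its intron of 27313 bp, 26294 bp from the start of the transcript. Prdm1, whose product BLIMP1 represses genes that hold back osteoclast formation, had a gain DAR 22960 bp after its TSS. Dnmt3a, which encodes a DNA methyltransferase, had a gain DAR at 5417 bp. Hdac4, a class IIa histone deacetylase gene, had a loss DAR 13573 bp before the nearest TSS. The genes that mark mature osteoclasts, Acp5, Ctsk, Mmp9, Dcstamp and Nfatc1, hosted none, nor did the macrophage marker genes Adgre1, Csf1r, Cd68 and Itgam. Of all protein-coding genes with an intron, 1.77% were hosts and 47.7% have a first intron over 3 kb. The rule left out DARs 1 to 3000 bp after a TSS, so compact genes could hardly be hosts. First-intron lengths of these markers are not given here, and their absence is not read as a result. As the tables hold no levels, markers could not be used to check the identity of the cells.

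Myeloid and interferon genes were hosts in both directions. Of 109 genes for myeloid identity and macrophage receptors, 5 (4.59%) were hosts, beside 1.77% of all protein-coding genes. Among those with a first intron over 20 kb, 3 of 22 (13.6%) were hosts, beside 10% of all such genes. Gain DARs lay in Pik3r5, in Syk at 6042 bp after the TSS, and in Tet2, which encodes an enzyme that oxidizes methylated cytosine, at 17876 bp. Loss DARs lay in Ptprj and in Itgb2, the gene of the shared beta chain of leukocyte integrins, where the DAR was 418 bp wide and lay 6429 bp after the TSS. Of 75 interferon and innate sensing genes, 3 (4%) were hosts, and of the 5 with a first intron over 20 kb 1 was. Ifnar2, a chain of the type I interferon receptor, had a gain DAR 3870 bp after its TSS, and Jak1, the kinase that pairs with this receptor, had a gain DAR of 316 bp that lay 30579 bp into the transcript. Stat3, a transcription factor downstream of cytokine receptors, had a loss DAR of 150 bp at 13986 bp. The Syk, Itgb2 and Stat3 DARs lay in a later intron of the transcript with the longest coding sequence.

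Genes of chromatin and forkhead factors gave few hosts. Among 59 genes for BAF subunits and acetyl-lysine readers, 3 (5.08%) were hosts, beside 1.77% of all protein-coding genes. Of the 14 with a first intron over 20 kb 2 were hosts, beside 10% of all such genes. Gain DARs lay in Kat2b, which encodes an acetyltransferase with a bromodomain, and in Ss18l1, which encodes a BAF subunit, and a loss DAR of 398 bp lay in Zmynd11, the gene of a histone reader. Of 21 forkhead and partner factor genes in the annotation, 3 (14.3%, 4.98 to 34.6%) were hosts, with 0 gain and 3 loss DARs. Of the 8 with a first intron over 20 kb 2 were hosts. The hosts were Foxp1, Foxp2 and Foxn3. The Foxp1 DAR, of 150 bp, lay 100037 bp after the start of the listed transcript, in an intron of 126777 bp. The Foxp2 DAR lay 47661 bp after the TSS, and the Foxn3 DAR 30417 bp before the nearest TSS. A count of 3 DARs is too small to tell a direction for the list, and the listed introns of these genes are long, from 86561 to 126777 bp.

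Regulators of small GTPases and the cytoskeleton were the list with the most hosts, 15 of 119 genes (12.6%, 7.79 to 19.8%), with 12 gain and 7 loss DARs. Their first introns are long, with a median of 31103 bp, and among those over 20 kb 12 of 74 (16.2%) were hosts, beside the 10.0% of all such genes. Asap1, which encodes a GTPase-activating protein for Arf, held 2 gains and 1 loss. Gain DARs without a loss lay in the genes of the Rac activators Tiam1, Dock1 and Dock4, at 5272, 22473 and 13418 bp after the TSS. They also lay in Arhgap18 and Arhgap6, whose products switch off small GTPases, in Rasa3, Iqsec1 and Palld, and in Utrn, a relative of the dystrophin gene. Arhgap24 held 1 DAR of each direction, with the loss 16046 bp and the gain 133850 bp into the transcript. Loss DARs alone lay in Actn1, an actin crosslinker gene, Rap1gap2, Arhgef28 and Fmnl2, a formin gene with losses 142008 and 153581 bp into the transcript.

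The other lists gave 1 to 3 hosts each. Of 98 phospholipid and lipid genes 3 (3.06%) were hosts, beside 1.77% of all protein-coding genes. A gain lay in Elovl5 and a loss in Elovl6, both of which encode elongases of fatty acids. Osbpl8, a lipid transfer gene, held 1 DAR of each direction, 7359 bp apart. On this list 39 genes had a first intron over 20 kb, and 3 of these (7.69%) were hosts, beside 10% of all such genes. Of 46 genes of apoptotic signalling 1 (2.17%) was a host, close to the 1.77% of all protein-coding genes. It was Bcl2, which encodes an inhibitor of apoptosis, with a gain DAR. On this list 3 genes had a first intron over 20 kb. Of 65 marker genes of other cells in marrow and bone 1 (1.54%) was a host, also close to that share, and 7 had a first intron over 20 kb. The host was Kit, the stem cell factor receptor gene of progenitors and mast cells, with a gain DAR 3307 bp after its TSS. Over all 9 lists 40 of 655 genes (6.11%) were hosts, beside 1.77% of all protein-coding genes. Among those with a first intron over 20 kb, 30 of 184 (16.3%) were hosts, beside 10% of all such genes. The listed hosts held 27 gain and 20 loss DARs, so a list and a direction did not go together beyond what these small counts can show.

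The 531 DARs lay in 462 host genes, of which 361 were protein-coding, 94 were lncRNAs, 3 were pseudogenes and 4 were identifiers not found in the annotation. Gains had 256 host genes and losses 238, and 32 genes had both, which is 12.5% of the gain hosts and 13.4% of the loss hosts. Most hosts, 412 of them, held a single DAR, 35 held 2, 12 held 3, 2 held 4 and 1 held 5. Of the 50 hosts with at least 2 DARs, 32 held both directions, 8 held gains alone and 10 held losses alone. As gains and losses were nearly equal in number, no tendency towards mixed hosts is read from these counts.

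Auts2 and Negr1, both known mainly as genes of the nervous system, held 4 DARs each. In Auts2 there were 1 gain and 3 losses, and in Negr1 2 of each. Hosts with 2 gains and 1 loss were Arsj, Asap1, Hs6st3, Sema3e and Smurf1, and hosts with 1 gain and 2 losses were Fgf14, Gm5095, Grip1 and Mitf. Kcnip4, which encodes a potassium channel-interacting protein, and Rbms3, which encodes an RNA-binding protein, held 3 gains, and AA536875 held 3 losses. The host with 5 DARs was listed by the identifier ENSMUSG00000092329, which is not in the annotation used. Its 3 gains and 2 losses were spread over 3.73 Mb of chromosome 8 and had 5 different nearest genes, so they need not belong to 1 intron of 1 gene.

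**Figure D2:**
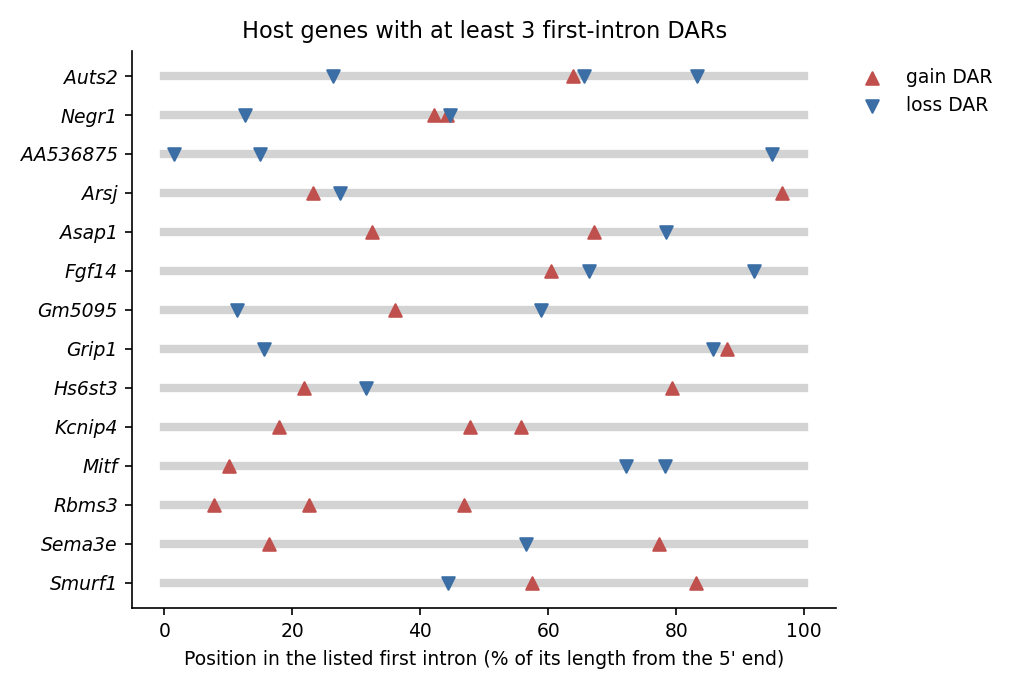
Position of each gain DAR (triangles pointing up) and loss DAR (triangles pointing down) along the listed first intron, in percent of its length from the 5′ end (x axis), for the host genes with 3 or more DARs that are in the annotation (y axis); grey bars are the introns. In Kcnip4 and Rbms3 the DARs have different listed transcripts, so each of these bars combines more than 1 intron. Both directions lie in 1 intron in most of these hosts, side by side in Negr1 and Auts2, while Kcnip4 and Rbms3 hold gains alone and AA536875 losses alone.

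Among hosts with 1 DAR of each direction were Stk10, a kinase gene of blood cells, where the gain lay 5168 bp and the loss 20682 bp after the TSS, and Evl, an Ena/VASP gene, with a gain of 223 bp and a loss of 367 bp. Others were Arhgap24, Csmd1, Entrep2, Kcnab1, Kcnd2, Ncam2, Nhsl1, Nt5c2, Osbpl8, Pacsin2, Tenm3, Tshz2, Tspan5, Zfp804b and the lncRNA genes Gm11884, Gm40646 and Gm49685. Atp6v1a, which encodes the catalytic subunit of the proton pump that osteoclasts use to acidify bone, held 2 gain DARs with 1468 bp between them. Erg, which encodes an ETS factor of blood and endothelial cells, held 2 losses, as did Epb41l3, Fmnl2, Fshr, Grik1, Iqcm, Snap25, Syt16 and Gm13816. Pairs of gains lay in Nalf1, Zfp936, Nkx2-2os, Gm7706 and Gm48877. Whether these genes are transcribed in BMDMs was not analysed here.

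Neighbouring DARs in 1 host were followed along the chromosome. The 69 consecutive pairs comprised 31 of the same direction (44.9%, 33.8 to 56.6%), with 15 of 2 gains and 16 of 2 losses, and 38 of opposite direction. The median gap was 31721 bp in pairs of the same direction and 40923 bp in opposite pairs. Within 10 kb there were 16 pairs, of which 8 were opposite. The 69 pairs include those of ENSMUSG00000092329 and some in Gm49685, Kcnip4, Rbms3 and Tshz2 with different listed transcripts. Not every pair thus shares an intron. Closeness within a host did not go with a shared direction in these counts. The closest pair, 923 bp apart in Negr1, was a gain and a loss, the next, in Atp6v1a, was 2 gains, and the pair in Gm40646, 1823 bp apart, was again a gain and a loss.

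Close pairs of opposite direction are shown from Arsj, an arylsulfatase gene, with 2885 bp between the DARs, and from Auts2, with 4850 bp between them. They were selected because they are near each other in 1 intron yet went in different directions, and capitals again mark motif cores.
Arsj gain DAR, chr3:126175673-126175842 (+ strand, GRCm39): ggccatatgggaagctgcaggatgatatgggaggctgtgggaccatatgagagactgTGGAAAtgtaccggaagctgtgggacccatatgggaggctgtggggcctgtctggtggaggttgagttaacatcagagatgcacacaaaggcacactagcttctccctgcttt
Arsj loss DAR, chr3:126178728-126178937 (+ strand, GRCm39): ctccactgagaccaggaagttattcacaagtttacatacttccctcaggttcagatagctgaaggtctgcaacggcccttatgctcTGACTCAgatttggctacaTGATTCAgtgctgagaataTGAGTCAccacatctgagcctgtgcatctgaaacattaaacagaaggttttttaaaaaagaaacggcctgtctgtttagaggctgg
Auts2 loss DAR, chr5:132384916-132385065 (+ strand, GRCm39): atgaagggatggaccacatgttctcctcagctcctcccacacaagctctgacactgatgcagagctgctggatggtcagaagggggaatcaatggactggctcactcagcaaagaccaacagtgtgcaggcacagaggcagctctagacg
Auts2 gain DAR, chr5:132389916-132390120 (+ strand, GRCm39): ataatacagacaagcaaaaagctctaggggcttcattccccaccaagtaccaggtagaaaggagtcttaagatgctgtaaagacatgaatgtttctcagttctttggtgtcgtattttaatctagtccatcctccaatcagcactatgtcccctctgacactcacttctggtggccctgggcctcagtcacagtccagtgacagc

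The Arsj loss DAR held 3 AP-1 cores close together, whereas the Arsj gain DAR shown held an NFAT core alone. Another Arsj gain, farther along the intron, held interferon response and NFAT cores. Neither Auts2 DAR shown held any of the searched cores. The closer opposite pairs in Negr1 and Gm40646 are not shown, and the Gm40646 pair held none of the cores. No contrast in motifs by direction is read from these pairs.

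Hosts also carried DARs elsewhere. Of the 462 host genes, 120 had at least 1 other DAR, 68 had one in a later intron and 19 had one in the promoter. Gain hosts had a promoter gain in 7 cases and a promoter loss in 4, and loss hosts had a promoter gain in 3 and a promoter loss in 6. In later introns gain hosts had a gain in 24 cases and a loss in 22, and loss hosts a gain in 23 and a loss in 16. The share of all genes with such DARs was not computed. No excess among hosts and no agreement in direction is therefore read from these counts. Tet2 had a gain both in the first intron and at the promoter, whereas Slc3a2, the gene of the heavy chain of amino acid transporters, had a first-intron loss and a promoter gain. Kcnab1, with 1 DAR of each direction in the intron, had a promoter loss.

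Distances to the nearest TSS were alike for gains and losses. The median absolute distance was 13956 bp over the 531 DARs, 13840 bp for gains (95% interval of the median 11733 to 16041 bp) and 13986 bp for losses (11915 to 17081 bp), and the range was 3006 to 342486 bp. From 5 to 50 kb after the TSS gains were more numerous in each class of distance. At 5 to 10 kb there were 46 gains and 36 losses, at 10 to 20 kb 49 and 43, and at 20 to 50 kb 49 and 39. At 3 to 5 kb losses were more numerous, with 23 gains and 28 losses, as they were beyond 50 kb. These differences are of a few DARs and do not form a trend with distance.

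**Figure D3:**
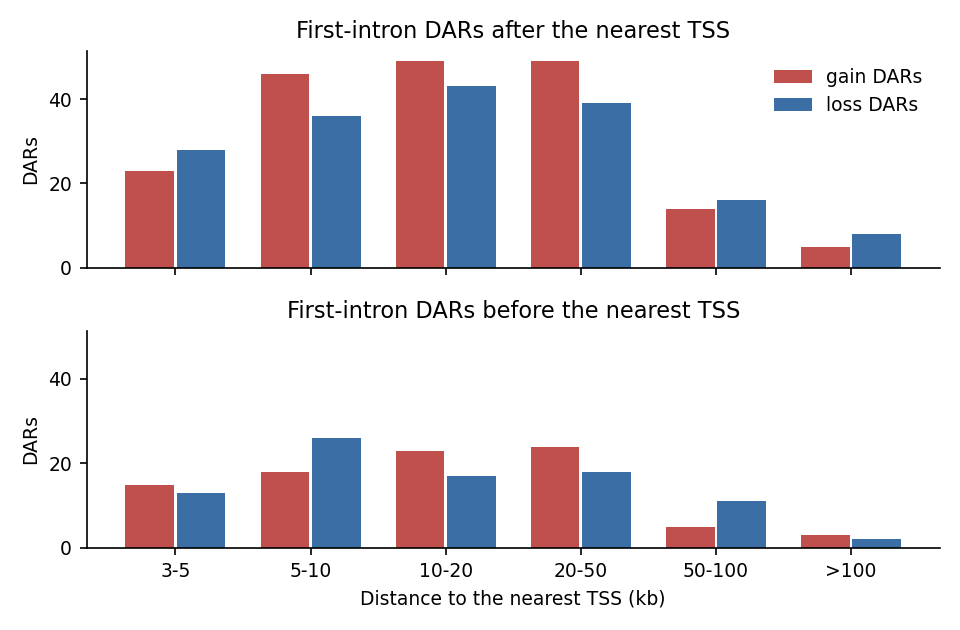
Number of gain and loss DARs (y axis) in classes of distance in kb to the nearest TSS (x axis), with DARs after the TSS above and those before it below. Most DARs of both directions lie between 5 and 50 kb, and the direction with more DARs changes from class to class.

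The DARs farthest after a TSS were a loss in Dcc, at 342486 bp, and a loss and a gain in Csmd1, at 278811 and 242339 bp. Before the TSS, the farthest were a loss in Ntm, at 165628 bp, and gains in Npas3 and Cadm2, at 141715 and 135265 bp. All 5 genes are large and known from the nervous system or from cell adhesion. At the limit, the nearest DARs kept were losses in the lncRNA genes Gm49944 and Gm31983, at 3006 and 3059 bp, and the nearest left out were a loss in Klhl18, at 2950 bp, and a gain in Maml2, at 2923 bp. Before the TSS, the nearest were losses in Gm2824 and Usp46, at 3021 and 3117 bp. DARs up to 3 kb before a TSS are annotated as promoter in the tables and so cannot be first-intron DARs.

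The host introns were long. The intron that held a DAR had a median length of 70953 bp over the 523 DARs that could be placed in the listed transcript, 68383 bp for gains (52915 to 73163 bp) and 82618 bp for losses (62459 to 96895 bp). The introns that held later-intron DARs had a median of 26736 bp. Over all 20363 genes the first intron had a median of 2738 bp and exceeded 20 kb in 13.4%, while in the 361 protein-coding hosts the median was 47752 bp and 75.6% exceeded 20 kb. The distance limit itself removed DARs from short introns. For classes of length, a gene counted as a host only if a DAR lay in the first intron of its transcript with the longest coding sequence. This is narrower than the host by annotation text used elsewhere. Counted so, the share of hosts rose with the length of that intron. It was 0.263% of 4952 genes at 3 to 10 kb and 4.92% of 1726 at 20 to 50 kb. Above 100 kb it was 22.2% of 383. Per Mb of intron beyond 3 kb the density of the first-intron DARs so placed did not keep rising. It was 0.985 DARs per Mb at 3 to 10 kb (0.525 to 1.68), 1.84 at 20 to 50 kb (1.48 to 2.26), 1.91 at 50 to 100 kb (1.51 to 2.39) and 1.54 above 100 kb (1.27 to 1.86).

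Direction did not follow the length of the first intron in a steady way in protein-coding hosts. Only DARs in the first intron of the transcript with the longest coding sequence were counted here. The gain share was 53.8% at 3 to 10 kb (13 DARs), 48.1% at 10 to 20 kb (27 DARs), 59.6% at 20 to 50 kb (89 DARs, 49.2 to 69.1%), 55.8% at 50 to 100 kb (77 DARs) and 44.2% above 100 kb (113 DARs, 35.4 to 53.4%). The intervals of all 5 classes overlapped. Listed introns of 20 to 50 kb held gains, as in Tet2 and Dnmt3a, and losses, as in Tnfrsf11a and Hdac4. Those above 100 kb likewise held gains, as in Dock4 and Bcl2, and losses, as in Fmnl2 and Ptprj.

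Counted over DARs of every annotation class, by midpoint, first introns held more DARs per Mb than later introns. These counts go beyond the first-intron DARs defined at the start. The densities by intron length above counted only part of those, so they cannot be set beside the values here. For those alone no density beside later introns was computed. With 1 transcript per protein-coding gene and bases beyond 3 kb of its start, 440 DARs lay in 189 Mb of first introns, or 2.32 per Mb (exact Poisson 95% interval 2.11 to 2.55), and 1269 in 674 Mb of later introns, or 1.88 per Mb (1.78 to 1.99). The autosomes and chromosome X as a whole held 2.14 per Mb. For losses the densities were 1.13 per Mb (0.979 to 1.29) in first introns and 0.81 (0.743 to 0.88) in later ones, and these intervals did not overlap. For gains they were 1.2 per Mb (1.05 to 1.37) and 1.07 (0.995 to 1.15), and these did. The overlap for gains depended on the transcript and bases counted. With the transcript of the longest span, gains had 1.3 per Mb (1.16 to 1.47) in first introns and 1.06 (0.99 to 1.14) in later ones, and with all intron bases 1.49 (1.33 to 1.65) and 1.08 (0.999 to 1.16), without overlap in either case. Whether first and later introns differed more for losses than for gains was not tested.

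**Figure D4:**
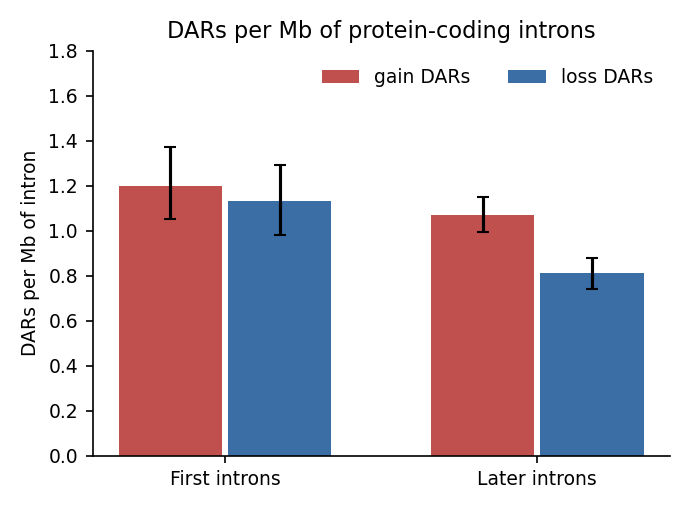
Gain and loss DARs per Mb (y axis) in first and later introns of protein-coding genes beyond 3 kb of the transcript start, where bars are densities and lines are exact Poisson 95% intervals that cover counting error only. DARs of every annotation class with their midpoint in these bases were counted. Loss DARs lie at 1.13 per Mb in first introns and 0.81 in later ones, and gain DARs at 1.2 and 1.07.

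Inside the intron, DARs were spread almost evenly. Of 523 placed DARs, 109 lay in the first of 4 equal parts of the intron, 133 in the next, 144 in the one after and 137 in the last. The rule removed DARs close to a start. Gains and losses had nearly the same shares in each part, with 20.8% and 20.9% in the first and 26.4% and 26% in the last.

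First-intron DARs were narrow. Widths ran from 150 to 531 bp with a median of 186 bp, equal to the median of later-intron DARs, and 108 DARs (20.3%) were at the smallest width of 150 bp. Gains had a median of 192 bp (182 to 201 bp) and losses of 180 bp (173 to 188 bp). The widest gains lay in Aig1 (531 bp), Arhgap39 (443 bp) and Hexa (407 bp), a lysosomal hexosaminidase gene, and the widest losses in Gm30881 (426 bp), Pid1 (421 bp) and Itgb2 (418 bp). Over 300 bp there were 21 gains and 16 losses.

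The DARs were richer in G and C than their surroundings. The mean GC content was 48.8% ± 5.31 (SD over 531 DARs, which are not replicates), against 43% in equally long flanks taken 1 kb away on both sides, and it was 49% in gains and 48.6% in losses. Later-intron DARs had the same mean of 48.8%, and first-intron DARs 1 to 3000 bp after a TSS had 53.3%. CpG dinucleotides averaged 1.01 per 100 bp, beside 2.53 in the DARs 1 to 3000 bp after a TSS. In composition the first-intron DARs beyond the promoter zone thus resembled later-intron DARs and not those near a start.

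Cores of 11 motifs were searched on both strands of each whole DAR, and 263 of 531 DARs (49.5%) held at least 1. The cores can share bases, since the NFAT core TGGAAA ends with the letters that open the interferon response core GAAANNGAA. PU.1, an ETS factor that sets macrophage identity, was searched as GAGGAAG and found in 13% of DARs (10.4 to 16.1%), against 7.25% of flanks (5.84 to 8.97%), 12.4% of later-intron DARs and 11.6% of all DARs. AP-1, the family of FOS and JUN proteins, was searched as TGANTCA and was likewise in 13% of DARs, against 6.69% of flanks, 13.5% of later-intron DARs and 10.8% of all DARs. Both cores were thus more frequent inside the DARs than beside them, at shares close to those of other intron DARs. The E-box CACGTG was in 3.95% (2.6 to 5.97%) against 1.79% of flanks (1.15 to 2.78%), with overlapping intervals.

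For the other cores the shares in DARs and flanks were close or lower in DARs. C/EBP, searched as TTGCNNAA, was in 6.97% of DARs and 6.69% of flanks, and RUNX, searched as TGTGGTT, in 4.14% and 4.43%. The forkhead cores GTAAACA and ATAAACA were in 2.07% and 3.39% of DARs and in 3.01% and 5.56% of flanks. The NFAT core was in 16.4% of DARs and 19% of flanks, and the interferon response core in 4.71% and 5.74%. The core of CTCF, a factor that bounds chromatin loops, was in 2.07% of first-intron DARs (1.16 to 3.67%), below the 5.01% of all DARs (4.47 to 5.61%). Later-intron DARs, at 3.05% (2.23 to 4.16%), were also below all DARs, and flanks were at 2.54%, so the low share was not particular to first introns. GC content differed between DARs and flanks, as given above, and its part in these shares was not tested.

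**Figure D5:**
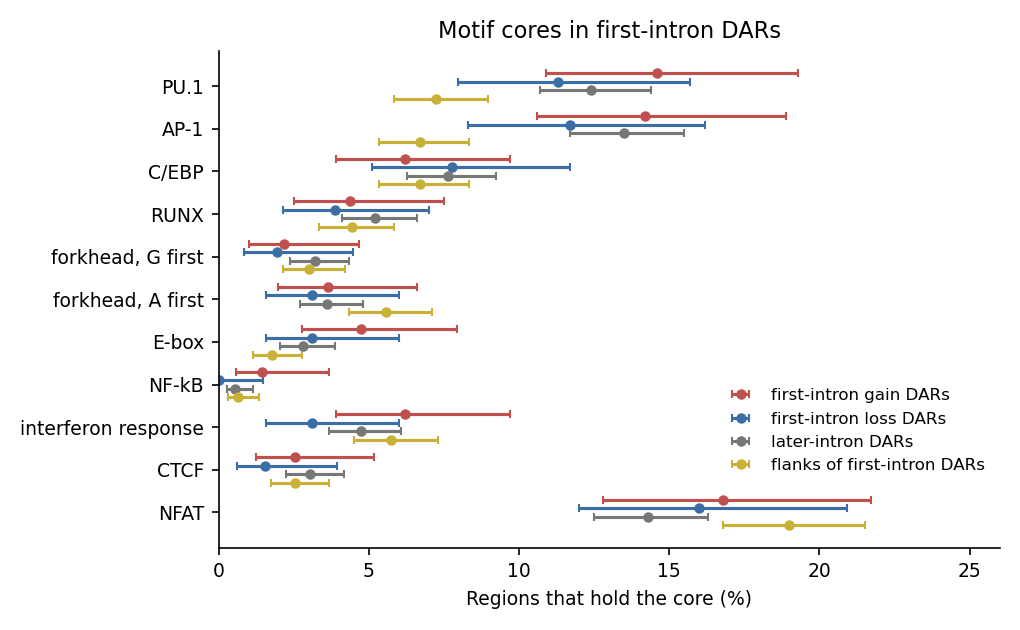
Share of regions in percent (x axis) that hold each motif core (y axis), for gain and loss first-intron DARs, later-intron DARs and flanks of first-intron DARs, where points are shares and lines are 95% Wilson intervals that cover counting error only. PU.1 and AP-1 cores lie at 14.6% and 14.2% of gains, 11.3% and 11.7% of losses and 7.25% and 6.69% of flanks, and the intervals of gains and losses overlap for every motif.

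Between gains and losses the motif shares had overlapping intervals throughout. PU.1 cores were in 14.6% of gains (10.9 to 19.3%) and 11.3% of losses (7.97 to 15.7%), and AP-1 cores in 14.2% (10.6 to 18.9%) and 11.7% (8.3 to 16.2%). Interferon response cores were in 17 of 274 gains (6.2%, 3.91 to 9.71%) and 8 of 257 losses (3.11%, 1.59 to 6.02%), among them the Tfec and Kat2b gains. Their flanks were higher and ran in the same order, with 7.12% for gains and 4.28% for losses, and all DARs were at 4.71%. The NF-kB core GGGANTTCC was in 4 gains, which include those of Abtb2 and Pnrc1, and in 0 of 257 losses, which allows a share of up to 1.17% by the limit of 3 counts and 1.47% by the Wilson interval. This core was rare everywhere, in 0.753% of first-intron DARs and 0.938% of all DARs. It was in 0.912% of the flanks of gains and 0.389% of those of losses, so no difference by direction is read. Abtb2 and Pnrc1 were named after their motifs had been seen. Several cores met in 1 DAR in the Kat2b gain, with PU.1, AP-1 and interferon response cores, and in the Hexa gain, with PU.1, AP-1 and NFAT cores.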

How the data were processed

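ATAC-seq libraries of MR + vector and MR + iBRD9 BMDMs, 1 per condition, were compared, and direction, host gene and distance came from the tables of DARs. Per the methods and the labels, the authors trimmed reads with cutadapt 1.9.1, aligned them to GRCm39 with Bowtie2 2.2.6, removed duplicates with Picard 1.126, brought both libraries to a common number of reads, called peaks with MACS3 on each library, merged them and kept regions past a fold change limit. The values the authors deposited are positions, widths and signed distances to the nearest TSS in bp, which are other quantities than counts or signal, together with a text annotation. No columns of other samples were found, and no column of fold changes or p-values was there.

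The host gene was read from the annotation text, not from the nearest gene. Transcripts were placed in GENCODE M39 (GRCm39), and densities used the transcript with the longest coding sequence of each of 20363 protein-coding genes. DARs were assigned to introns with bedtools 2.31.1. Sequences were read from the GRCm39 genome with pysam 0.24.0, and tables were handled with Python 3.11.15, numpy 2.4.6, pandas 2.3.3 and scipy 1.17.1. Shares carry 95% Wilson intervals, densities exact Poisson intervals and medians order-statistic intervals. The scripts were tested on simulated data. With 1 library per condition no test was run.

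The members and the lists of genes and motifs were chosen with earlier results of these data known. Genes are named where they are on a list or named by the study and host a DAR, hold at least 2 first-intron DARs, or hold the widest DARs, the farthest ones or those nearest to the distance limit. The 9 lists hold 673 genes. Sequences come from osteoclast and myeloid hosts with a motif and from close opposite pairs. The alternatives were merged neighbours, other distance limits, protein-coding hosts, the nearest gene as host, another transcript, the first intron of the longest coding transcript and a window of 150 bp. The first intron of the longest coding transcript and leaving out hosts missing from the annotation were added after seeing the data.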

Additional observations from a re-analysis of the deposited data

How the results depend on the processing

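The gain share of first-intron DARs ranged from 51.4 to 52.6% over the alternatives that changed the DARs counted, among them a limit of 10 kb, protein-coding hosts alone and the first intron of the longest coding transcript alone. Merging neighbours within 1 kb, autosomes and chromosome X alone and leaving out 3 kb on either side of the TSS removed no DAR, so they say nothing about stability. Measured to the start of the listed host transcript, the median distance was 27401 bp for gains and 31061 bp for losses, against 13840 and 13986 bp to the nearest TSS. With all intron bases, which brings in those near the start, first introns held 2.79 DARs per Mb against 2.32. Leaving out DARs at the smallest width gave a median of 206 bp for gains and 191 bp for losses, as fewer narrow DARs remained. In a window of 150 bp, which is shorter than most DARs, PU.1, C/EBP, forkhead ATAAACA and NFAT cores fell to 9.79, 4.52, 1.69 and 13.4% of DARs. By nearest gene, the hosts among BAF genes went from 3 to 1 and among apoptosis genes from 1 to 0. No paired analysis was possible because there was only a single library for MR + vector and for MR + iBRD9. The alternative that leaves out masked repeats was not run, as the genome used carries no masking. Without counts, depth, signal and replicates, neither the size nor the error of a single change can be given, and regions that did not change were not analysed here, so the share of open first-intron regions that changed is unknown.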
